A study of Mus musculus with 12 samples.

Results

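Kidney gene expression was set side by side in mice that had received a dose of the hormone FGF23 and in mice in which the gene of its co-receptor klotho was disrupted. The comparison is the direct contrast of the 4 arrays of FGF23-treated wild-type mice with the 4 arrays of KL null mice, 8 of the 12 arrays of the series, over 19938 genes. Each gene was represented by 1 probe set, the one with the highest mean over the 12 arrays among the probe sets that carry exactly 1 gene symbol. No measured value chose the arrays.

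All mice were female, and total RNA came from kidney. The FGF23 group was of genotype WT and strain C57BL/6, received 500 ng of recombinant FGF23 per g body weight into the peritoneum and was killed 1 hour later. The KL null group carried the strain label 129/SvEv/C57BL/6, received 100 µl of saline and was killed after the same time. The remaining 4 arrays, of WT C57BL/6 mice given the same saline, were not part of the contrast. They entered the estimate of the spread and the choice of probe sets, define the genes in which vehicle lay between the groups, and are given beside other results for scale. Mice of both genotypes had been on a standard diet for 5 to 8 weeks, and the protocol describes the wild-type animals as littermates although the strain labels differ. Hormone treatment, genotype and strain label all change between the groups compared, so their parts in any difference cannot be told apart. Klotho was missing for life in one group and the hormone was present for 1 hour in the other, which also limits the contrast as a model of a single signal. Whether each array stands for its own mouse is not stated, so the p-values speak only for the scatter among these samples, which may be technical.

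FGF23 is a hormone of bone that acts on the kidney. It binds FGF receptors only weakly by itself, and klotho, a membrane protein of the distal and proximal tubule encoded by Kl, joins the receptor to form the high-affinity binding site. The complex signals through the adaptor FRS2 and RAS to the kinase ERK, which switches on immediate early transcription factors and then feedback inhibitors such as sprouty proteins and MAP kinase phosphatases. In the proximal tubule the hormone lowers phosphate reabsorption and the synthesis of active vitamin D. Mice without klotho have high phosphate, high active vitamin D and early ageing of many tissues.

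Values are deposited log2 RMA signals, so a difference of 1 is a doubling. Every difference below is FGF23-treated wild type minus KL null, and a negative one means a higher signal in KL null. A gene was called when its adjusted p, from limma with Benjamini-Hochberg correction over all 19938 genes, was below 0.05. Arrays are listed in the order of replicates 1 to 4.

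The arrays of a group correlated at 0.99 to 0.9961 within FGF23 and 0.9896 to 0.9959 within KL null, and at 0.982 to 0.9891 between them. On the first principal component of the 8 arrays, with 46.1% of the variance, the FGF23 arrays lay between -28.23 and -7.21 and the KL null arrays between 7.17 and 25.21. The SD of the log2 values on an array was lowest in FGF23 replicates 1 and 2 (2.166 and 2.167) and in KL null replicates 1 and 2 (2.195 and 2.217), against 2.23 to 2.281 in the other 8 arrays. Leaving out these 4 arrays is one of the alternatives given beside results below. The kidney markers Umod of the thick ascending limb (12.49 to 12.91 over the 8 arrays) and Lrp2 of the proximal tubule (12.19 to 12.81) were measured in both groups. The female sex of the labels was checked with Xist, at 11.06 to 11.41 over the 12 arrays. The Y-linked genes Kdm5d and Uty lay at 3.35 to 3.72 and 3.03 to 3.74 in all 12.

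The groups differed in 2386 genes, 12% of those tested. Of these, 1046 (5.25%) were higher after FGF23 and 1340 (6.72%) were higher in KL null, and 68 and 73 of them differed at least 2-fold. These shares of all genes are the background for every count of list members below. The largest called differences on the FGF23 side were in the steroid dehydrogenase gene Akr1c18 and the transporter gene Slc22a7. On the KL null side the largest was in the predicted gene Gm6614 (-4.43), which the rule for named genes leaves out, followed by the amino acid transporter gene Slc7a13, the vitamin D hydroxylase Cyp27b1 and the macrophage gene Mmp12. The median difference of all genes was 0.048. In 3211 genes (16.1%) the 4 arrays of one group did not overlap the 4 of the other, and 2026 of these were called. The count of calls depended on single arrays: it was 1369 without FGF23 replicate 2, 1574 without FGF23 replicate 4 and 1218 without KL null replicate 3, and 1166 without the 4 arrays of lowest spread. For scale, FGF23 against vehicle gave 17 calls (0.0853%) and KL null against vehicle 1598 (8.01%), and both share the vehicle arrays.

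**Figure D1:**
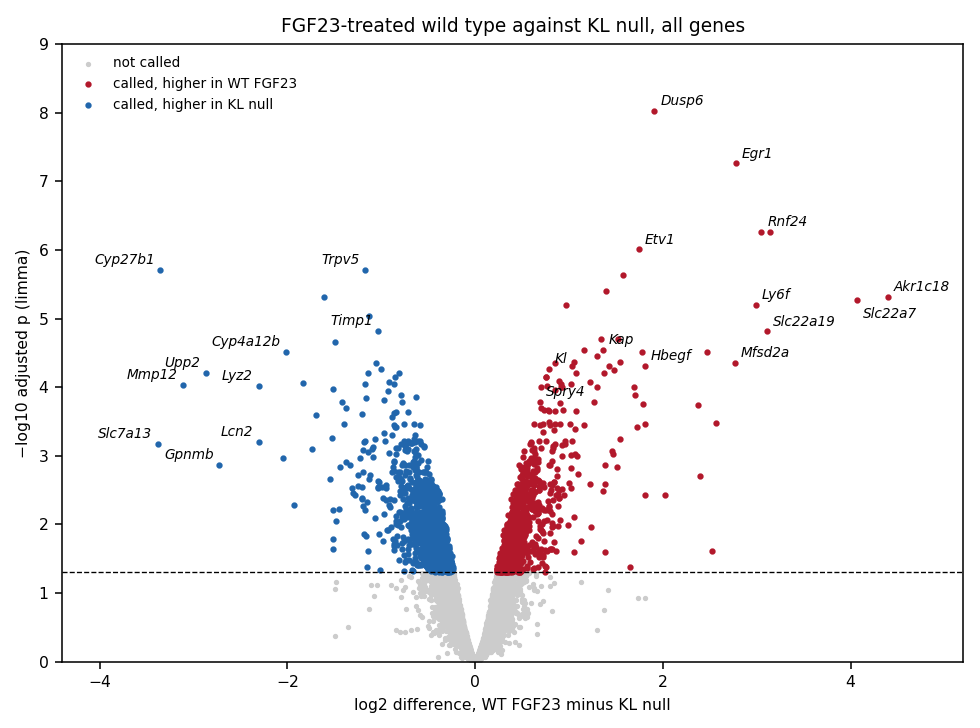
Each point is 1 of 19938 genes, with the log2 difference of FGF23-treated wild type minus KL null on the horizontal axis and −log10 of the limma adjusted p on the vertical axis. Red points are the 1046 genes called higher after FGF23 and blue points the 1340 called higher in KL null; the dashed line is an adjusted p of 0.05. Dusp6 and Egr1 stand highest, and Akr1c18 and Slc22a7 lie farthest to the right. The point of Gm6614 (-4.43) falls just beyond the left edge of the plot.

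Kl, the disrupted gene, came first as a check of the labels. Its signals were 10.45, 10.54, 10.61 and 10.44 in the FGF23 arrays and 9.66, 9.76, 9.66 and 9.80 in the KL null arrays. All KL null arrays were lower, and the groups did not overlap. The difference was 0.79 (SE 0.0831, 1.73-fold, adjusted p = 5.5e-05). The stretch of the gene that the probe set covers is unknown here. The signal left in KL null does not measure intact Kl mRNA, and a probe set outside the disrupted part would check nothing.

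Of 19 measured genes of the receptor complex and its adaptors, 4 were called higher after FGF23 and 0 in KL null, with a median difference of 0.12. Apart from Kl these calls were weak. The receptor genes Fgfr1 (-0.11, adjusted p = 0.508) and Fgfr2 (-0.17, adjusted p = 0.229) were not called. Fgfr4, which is expressed in the proximal tubule, read 8.27, 8.30, 8.25 and 8.59 after FGF23 and 7.96, 8.14, 7.88 and 8.05 in KL null, a narrow separation (0.34, adjusted p = 0.0295). Fgfr4 was no longer called without FGF23 replicate 2 or 4 (adjusted p = 0.055 and 0.0906) or without KL null replicate 1, 3 or 4 (0.0504, 0.103 and 0.0514). Fgfr3 had an adjusted p of 0.0452, and 0.0585 with the replicate number as a block. It kept its call without FGF23 replicate 1 or vehicle replicate 4 and lost it without any other single array, with an adjusted p of up to 0.129 (without FGF23 replicate 4). The list's count fell to 1 without FGF23 replicate 2 or 4 or KL null replicate 3 or 4, and to 2 without KL null replicate 2. Without vehicle replicate 4 or KL null replicate 1, 1 member was called higher in KL null. The count was 1 in the fit on the 8 arrays alone.

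Targets of ERK signalling were called on the FGF23 side in the fit to all arrays. Among 22 feedback genes of FGF receptors and ERK, 10 were called higher after FGF23 and 0 in KL null. The median difference of that list was 0.34. The called members were Dusp6, Etv1, Etv5, Errfi1, Dusp4, Cish, Spry4, Spry2, Phlda1 and Spred2. Among 38 immediate early genes, 10 were called higher after FGF23 and 0 in KL null, with a median of 0.17. Leaving out 1 array gave 8 to 11 calls in the first list and 8 to 10 in the second, where 1 gene was called higher in KL null without FGF23 replicate 3. Cish lost its call without FGF23 replicate 1, 2 or 4 or KL null replicate 1 or 2 (adjusted p from 0.0575 to 0.0907), and Phlda1 without FGF23 replicate 4 or KL null replicate 3 (0.0573 and 0.0532). Over all 24 alternatives Cish lost the call in 7, with an adjusted p of up to 0.341. Without the 4 arrays of lowest spread the feedback list had 7.

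Promoter sequences of these called genes are shown because the members were called in one direction in one contrast and ERK is known to act on several of them through the serum response factor, which binds the CArG box with ternary complex factors of the ETS family. RefSeq windows of 250 bases before the transcript start (GRCm38.p6) were used for 14 of the 20 called genes of both lists. No window was counted for Egr1, Ier2, Trib1, Dusp4, Spry4 or Phlda1. Windows of a chromosome set aside by rule were left out of the counts of genes, though they stay among the windows of the background. A CArG box stood in the windows of 3 of these 14 genes, Dusp5, Srf and Zfp36, and in 1.5% of all 32851 windows of that length. The ETS letters CCGGAA were in those of 2 genes (12% of all windows), the EGR letters GCGTGGG in 3 (4.3%), the AP-1 letters TGANTCA in 0 (6.7%) and the CRE core TGACGT in 5 (6.5%). Both strands were searched, the motifs searched do not contain one another, and a match is a description of letters, not a binding site. The windows of the 3 genes with a CArG box follow, and that of Dusp6, the gene of smallest p in the contrast, which holds none of these letters. They are written 5′ to 3′ on the gene's strand, and capitals mark the matches.
Dusp5, chr19:53528895-53529144, plus strand: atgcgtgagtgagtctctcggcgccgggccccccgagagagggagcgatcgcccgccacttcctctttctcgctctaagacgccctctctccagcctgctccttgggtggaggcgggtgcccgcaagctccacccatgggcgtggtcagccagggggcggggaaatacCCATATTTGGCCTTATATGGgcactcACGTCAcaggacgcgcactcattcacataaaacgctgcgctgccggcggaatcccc
Srf, chr17:46556163-46556412, minus strand: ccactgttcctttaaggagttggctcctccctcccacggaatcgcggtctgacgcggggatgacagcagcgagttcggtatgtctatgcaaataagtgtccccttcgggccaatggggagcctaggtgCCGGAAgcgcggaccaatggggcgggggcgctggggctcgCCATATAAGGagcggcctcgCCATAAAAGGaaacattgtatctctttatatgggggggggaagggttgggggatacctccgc
Zfp36, chr7:28379229-28379478, minus strand: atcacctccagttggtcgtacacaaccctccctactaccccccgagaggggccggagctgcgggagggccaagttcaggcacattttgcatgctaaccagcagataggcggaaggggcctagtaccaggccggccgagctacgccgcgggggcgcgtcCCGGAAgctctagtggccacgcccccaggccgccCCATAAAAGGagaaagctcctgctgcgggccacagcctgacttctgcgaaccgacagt
Dusp6, chr10:99262981-99263230, plus strand: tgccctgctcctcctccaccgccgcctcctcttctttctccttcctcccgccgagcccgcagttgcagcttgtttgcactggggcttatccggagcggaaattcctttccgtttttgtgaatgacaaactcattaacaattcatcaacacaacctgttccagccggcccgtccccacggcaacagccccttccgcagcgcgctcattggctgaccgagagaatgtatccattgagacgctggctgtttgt
The capitals in Dusp5 are a pair of adjoining CArG boxes, whose first bases lie 82 and 72 bases before the start, and a CRE core at 56. In Srf the CArG boxes begin at 82 and 62 and the ETS letters at 122. Zfp36 has its CArG box at 58 and the ETS letters at 92.

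Dusp6 encodes the phosphatase that dephosphorylates ERK and is a standard readout of FGF receptor activity. Its signals were 9.98, 10.21, 10.04 and 10.20 after FGF23 and 8.28, 8.18, 8.14 and 8.19 in KL null. The vehicle arrays read 8.93, 8.70, 8.79 and 8.91. The 3 groups formed separate steps without overlap, with FGF23 highest, vehicle between and KL null lowest. The direct difference was 1.91 (SE 0.0838, 3.76-fold, adjusted p = 9.54e-09). Against vehicle it was 1.27 after FGF23 (adjusted p = 1.6e-06) and -0.64 in KL null (adjusted p = 0.000389), values that share the vehicle arrays.

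Egr1, a zinc finger factor induced within minutes by ERK, read 8.93, 9.17, 9.56 and 9.69 after FGF23 and 6.71, 6.54, 6.59 and 6.41 in KL null. Every FGF23 array lay above every KL null array, and vehicle (5.98 to 6.33) lay below both. The difference was 2.77 (SE 0.144, 6.84-fold, adjusted p = 5.52e-08). Hbegf, a ligand of the EGF receptor that is shed from the membrane, read 8.29, 8.79, 9.41 and 9.25 against 6.92, 7.21, 7.09 and 7.29. FGF23 replicate 1 was the lowest of its group and still above all KL null arrays, and the difference was 1.81 (SE 0.188, 3.5-fold, adjusted p = 4.92e-05). Vehicle arrays overlapped those of KL null in Hbegf, at 7.10 to 7.48.

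In Ier2, Zfp36, Junb, Nab2 and Fos, too, the KL null arrays overlapped the vehicle arrays. Ier2, an immediate early nuclear protein, read 6.94, 6.59, 7.16 and 6.90 after FGF23 and 5.93, 5.94, 6.03 and 6.00 in KL null (0.92, adjusted p = 0.0001), with vehicle at 5.76 to 6.02. Zfp36, which shortens the life of cytokine and other AU-rich mRNAs, read 7.93, 7.54, 8.07 and 8.26 against 6.73, 7.30, 7.39 and 7.07 (0.83, adjusted p = 0.00445). The AP-1 subunit gene Junb differed by 0.70 (adjusted p = 0.00249) and Nab2, a corepressor of EGR factors, by 0.79 (adjusted p = 0.00138). Fos, the AP-1 partner of Junb, read 5.93, 6.08, 6.25 and 6.25 against 5.64, 5.78, 5.64 and 5.69. It was called (0.44, adjusted p = 0.0152), but not without KL null replicate 3 (adjusted p = 0.0507). Dusp5, a nuclear ERK phosphatase, differed by 0.55 (adjusted p = 0.0039) and Srf, the factor that binds the CArG box, by 0.57 (adjusted p = 0.00441, and 0.1 without the 4 arrays of lowest spread).

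The sprouty genes, whose products inhibit receptor tyrosine kinase signalling, were not all called. Spry4 read 6.95, 6.86, 7.05 and 6.77 after FGF23 and 6.26, 6.18, 6.15 and 6.27 in KL null (0.69, SE 0.0839, adjusted p = 0.000162). Spry2 read 7.86, 8.25, 8.17 and 8.07 against 7.59, 7.21, 7.62 and 7.37 (0.64, adjusted p = 0.00209). Neither gene's groups overlapped. Spry1 had the same sign but did not pass (0.29, adjusted p = 0.145). It was called in 1 of 24 alternatives, with array weights (adjusted p = 0.0351). Dusp4, a nuclear MAP kinase phosphatase, differed by 0.79 (adjusted p = 0.0053) and Errfi1, an inhibitor of the EGF receptor, by 0.81 (adjusted p = 0.00311).

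The ETS factors of the PEA3 family, which transcribe FGF targets, had another pattern. Etv1 read 7.50, 7.67, 7.54 and 7.79 after FGF23, 7.85, 7.87, 7.76 and 7.86 with vehicle, and 5.83, 6.17, 5.52 and 6.01 in KL null. Both wild-type groups were high and KL null was low, without overlap. The direct difference was 1.74 (SE 0.118, 3.35-fold, adjusted p = 9.87e-07), FGF23 against vehicle was -0.21 (adjusted p = 0.391) and KL null against vehicle -1.95 (adjusted p = 5.52e-07). Etv5 behaved likewise, at 7.21, 7.44, 7.24 and 7.25 after FGF23 and 6.54, 6.35, 6.57 and 6.07 in KL null (0.90, adjusted p = 0.000171), with vehicle at 7.18 to 7.46. Etv4 was not called (0.28, adjusted p = 0.0525). It was called in 6 of 24 alternatives, among them the replicate number as a block (adjusted p = 0.0437) and the fit without KL null replicate 1 (0.0191).

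**Figure D2:**
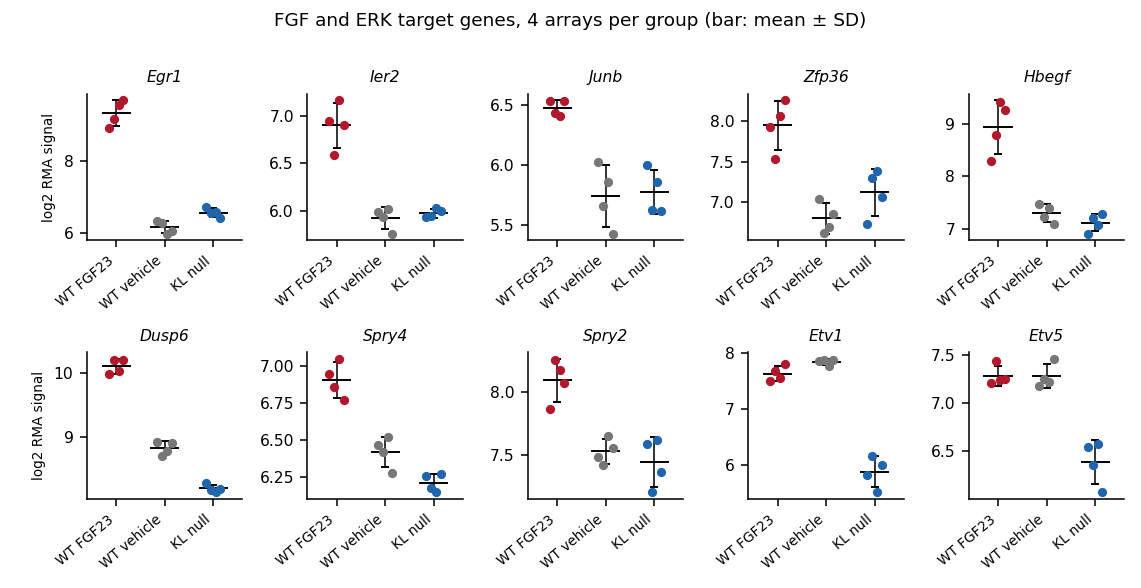
Log2 RMA signal of 10 ERK and FGF target genes in the 4 arrays of each group, with points for arrays and bars for mean ± SD; each panel has its own vertical axis, which does not start at 0. In Egr1, Ier2, Junb, Zfp36 and Hbegf the FGF23 arrays stand above both other groups; Dusp6 and Spry4 form 3 steps; in Etv1 and Etv5 KL null stands below both wild-type groups.

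The genes of the EGF receptor system other than Hbegf pointed the other way where they were called. Of 14 measured ligands and receptors 1 was higher after FGF23 and 3 were higher in KL null, with a median of -0.02. The latter count was 1 without FGF23 replicate 1 or KL null replicate 2 or 3, 1 with array spread as a covariate, and 0 without the 4 arrays of lowest spread. Erbb4, a neuregulin receptor, was higher in KL null in every array (8.94, 8.86, 9.23 and 8.99 after FGF23 against 9.53, 9.55, 9.73 and 9.43). Its difference was -0.56 (adjusted p = 0.00238, and 0.0644 without the 4 arrays of lowest spread). The ligand genes Tgfa (0.22, adjusted p = 0.133) and Egf (0.09, adjusted p = 0.516) did not pass.

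Dusp6 was 1 of 48 called genes (0.241% of those tested) whose 4 vehicle arrays all lay between the other groups. In 10 of them the order fell from FGF23 through vehicle to KL null and in 38 it rose. Next to Dusp6 the largest falling differences were in Ppp1r16b, a regulatory subunit of protein phosphatase 1, and Rnf186, an E3 ubiquitin ligase. Ppp1r16b read 9.06, 9.39, 8.97 and 8.93 after FGF23, 8.35 to 8.68 with vehicle and 7.45, 7.80, 8.01 and 7.90 in KL null (1.30, adjusted p = 3.46e-05). Rnf186 read 8.72, 8.83, 8.34 and 8.66, then 8.02 to 8.18, then 7.52, 7.70, 7.40 and 7.30 (1.16, adjusted p = 2.83e-05). Spry4 and Prr5l, which encodes a partner of the mTORC2 kinase complex, were also in this group (Prr5l 0.76, adjusted p = 9.72e-05).

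Among the rising genes, Mgst1, a microsomal glutathione transferase, read 8.92, 8.95, 8.93 and 9.02 after FGF23, 9.06 to 9.51 with vehicle and 9.79, 9.90, 10.43 and 10.37 in KL null (-1.17, adjusted p = 0.000144). Ppm1k, the phosphatase that activates branched-chain amino acid breakdown, read 8.30, 7.97, 8.24 and 8.30 after FGF23 and 9.25, 9.22, 9.37 and 8.97 in KL null (adjusted p = 5.5e-05). Edn1, which encodes endothelin-1, differed by -0.82 (adjusted p = 0.00234). Rassf6 (-0.66, adjusted p = 0.00314) and the peptidase gene Pm20d1 (-0.64, adjusted p = 0.000492) completed the 10 largest steps. Of these 10 genes, 3 were also called in FGF23 against vehicle: Dusp6, Prr5l and Spry4, the last 2 with an adjusted p of 0.047 each. The count of 48 is sensitive, since with fewer arrays a group spans a smaller range and is more easily parted from the next. It was 82 without FGF23 replicate 1 and 157 without FGF23 replicate 3. Without vehicle replicates 1 to 4 it was 84, 74, 94 and 93, and without KL null replicate 1 it was 102. It was 217 without the 4 arrays of lowest spread.

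Vitamin D metabolism held one of the largest differences. Cyp27b1 encodes the 1-alpha-hydroxylase that makes active vitamin D and is repressed by FGF23. It read 6.38, 5.73, 6.38 and 6.64 after FGF23 and 9.03, 9.81, 10.24 and 9.46 in KL null. All KL null arrays were far above all others, and the vehicle arrays (6.26 to 7.08) lay close to those of FGF23. The difference was -3.35 (SE 0.243, 10.2-fold, adjusted p = 1.97e-06). KL null against vehicle was 2.88 (adjusted p = 7.82e-06) and FGF23 against vehicle -0.47 (adjusted p = 0.362).

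Of 12 vitamin D genes 4 were called higher after FGF23 and 2 in KL null, and without the 4 arrays of lowest spread 2 in each direction. Vdr, the vitamin D receptor, was lower in KL null, at 9.15, 8.81, 8.92 and 8.76 against 9.54, 9.75, 9.61 and 9.65 after FGF23. The groups did not overlap, and the difference was 0.73 (SE 0.0957, 1.66-fold, adjusted p = 0.000339). Lrp2 encodes megalin, which takes up filtered vitamin D with its binding protein, and differed by 0.45 (adjusted p = 0.00314). Its partner cubilin, Cubn, did not pass (0.27, adjusted p = 0.0811). The sterol 27-hydroxylase gene Cyp27a1 was higher in KL null, at 8.92, 9.40, 9.31 and 9.52 against 8.73, 8.80, 8.64 and 8.66 (-0.58, adjusted p = 0.00366).

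The phosphate cotransporter genes Slc34a1 and Slc34a3 differed little, while Slc17a2 of another family, given below and not in this list, differed more. Slc34a1, the main sodium-phosphate cotransporter of the proximal tubule, read 12.86, 12.90, 12.85 and 12.89 after FGF23 and 12.71, 12.65, 12.66 and 12.64 in KL null. The groups did not overlap, yet the difference of 0.21 did not pass (SE 0.07, adjusted p = 0.0644). It passed under 4 alternatives, with an adjusted p of 0.0108 with no moderation and 0.0121 with trended and robust moderation. Slc34a3, its paralog, had 0.21 and overlapping arrays (adjusted p = 0.365). Of 15 phosphate transport genes 4 were called higher after FGF23 and 1 in KL null, with a median of 0.21, and without the 4 arrays of lowest spread the 4 became 2.

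The scaffold protein NHERF1, encoded by Slc9a3r1, anchors these cotransporters in the brush border. It read 10.54, 10.70, 10.59 and 10.90 against 10.18, 10.23, 10.23 and 10.20 (0.47, adjusted p = 0.00472). The related scaffold gene Pdzk1 differed by 0.36 (adjusted p = 0.0134), and Slc9a3r2 by 0.34 (adjusted p = 0.0451, and 0.0583 with the replicate number as a block). The call of Slc9a3r2 was lost without FGF23 replicate 1, 2 or 4, vehicle replicate 1 or 2, or KL null replicate 1, 2 or 3, with an adjusted p of up to 0.143 (without KL null replicate 3). Over all 24 alternatives it was lost in 13, with an adjusted p of up to 0.417. Stc2, which encodes the secreted glycoprotein stanniocalcin-2, was the member called higher in KL null (7.17, 7.18, 7.24 and 7.19 against 6.53, 6.60, 6.50 and 6.28; -0.72, adjusted p = 0.000612).

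Among calcium and magnesium transport genes of the distal nephron, the called members were all higher in KL null. Of 15 measured, 8 were called higher in KL null and 0 after FGF23, with a median of -0.32. The other 7 were not called, and their differences were above 0. Trpv5, the apical calcium channel of the distal convoluted and connecting tubule, read 7.67, 7.48, 7.84 and 7.65 after FGF23 and 8.83, 8.78, 8.84 and 8.88 in KL null. The difference was -1.17 (SE 0.0855, 2.25-fold, adjusted p = 1.97e-06), and vehicle lay at 7.76 to 7.94. S100g, the cytosolic calcium carrier calbindin-D9k, read 11.39, 11.06, 11.40 and 11.06 against 12.15, 11.89, 12.12 and 12.14 (-0.85, adjusted p = 0.000229). In both genes every KL null array was above every wild-type array.

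Cldn16, a claudin of the paracellular magnesium pathway, differed by -0.63 (adjusted p = 0.00154), and Trpm6, the magnesium channel, by -0.60 (adjusted p = 0.00223). Calb1, calbindin-D28k, read 9.79, 9.52, 10.21 and 9.94 against 10.54, 10.29, 10.41 and 10.42 (-0.55, adjusted p = 0.0155). Without FGF23 replicate 2 its adjusted p was 0.0509 and without the 4 arrays of lowest spread 0.223. The count of 8 was 5 without FGF23 replicate 2, 5 with no moderation of the variance and 4 without the 4 arrays of lowest spread. Sodium, potassium and water transport genes of the same segments stood out less, with 1 of 21 called and a median of 0.03, and 0 called without FGF23 replicate 2 or 4 or KL null replicate 3 or 4. The sodium-chloride cotransporter gene Slc12a3 (0.17, adjusted p = 0.237) and the water channel gene Aqp2 (0.20, adjusted p = 0.274) did not pass.

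Genes of steroid and organic anion metabolism held the largest differences on the FGF23 side. Akr1c18, a 20-alpha-hydroxysteroid dehydrogenase that inactivates progesterone, read 10.95, 11.71, 12.55 and 12.57 after FGF23 and 8.01, 6.57, 8.11 and 7.49 in KL null. KL null was low in every array, and vehicle (11.90 to 12.65) overlapped FGF23. The difference was 4.40 (SE 0.354, 21.1-fold, adjusted p = 4.88e-06). Akr1c14, a 3-alpha-hydroxysteroid dehydrogenase, differed by 2.56 (adjusted p = 0.000336). Its relative Akr1c13 went the other way, at 6.51, 6.61, 6.19 and 6.02 against 7.68, 7.20, 7.86 and 7.15 (-1.14, adjusted p = 0.000875). Of 9 members of the family 2 were called in each direction, and 1 was called higher in KL null without FGF23 replicate 2, 3 or 4 or KL null replicate 1 or 3. These genes are close paralogs, and whether a probe set also binds the transcript of a relative was not tested.

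Slc22a7, the organic anion transporter OAT2, read 8.76, 9.24, 10.52 and 10.51 after FGF23 and 5.93, 5.59, 5.33 and 5.90 in KL null (4.07, SE 0.332, 16.8-fold, adjusted p = 5.42e-06). Slc22a19 of the same family read 11.06, 11.05, 11.50 and 11.60 against 7.29, 7.76, 8.68 and 9.05 (3.11, 8.62-fold, adjusted p = 1.54e-05). In both genes FGF23 replicates 1 and 2, whose log2 SDs were the smallest, read lower than replicates 3 and 4, yet no array of one group reached the other. Slc22a13 differed by 1.02 (adjusted p = 8.87e-05). Slc22a26 varied widely within FGF23, at 5.79, 5.97, 8.61 and 8.70 against 4.61 to 4.83 in KL null. It was called (2.52, adjusted p = 0.024), but not without FGF23 replicate 3 or 4 (adjusted p = 0.0548 and 0.074) or KL null replicate 2 or 3 (0.0564 and 0.0604).

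Of 27 organic anion and cation transporters 8 were called higher after FGF23 and 4 in KL null. The latter count was 2 without FGF23 replicate 1, 2 or 4, vehicle replicate 2 or KL null replicate 1, and 2 with no moderation or with array spread as a covariate. The list's mean signal was 8.86 to 9.13 after FGF23, 9.18 to 9.3 with vehicle and 8.49 to 8.68 in KL null. Slco4c1, an organic anion transporter of the basolateral membrane, was among the members higher in KL null (7.06, 6.65, 6.06 and 6.49 against 8.25, 8.48, 8.05 and 8.44; -1.74, adjusted p = 0.000809). Other large differences on the FGF23 side were in Rnf24, a RING finger protein (9.04, 9.45, 9.40 and 9.94 against 6.39, 6.42, 6.26 and 6.56; 3.05, 8.28-fold, adjusted p = 5.55e-07) and in Mfsd2a, a lysophospholipid transporter (2.77, adjusted p = 4.39e-05). Slc17a2, a member of the sodium-phosphate cotransporter SLC17 family, differed by 2.48 (adjusted p = 3.1e-05). FGF23 against vehicle was not called in Rnf24 (0.21, adjusted p = 0.6).

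Several of these genes are known to differ between male and female mouse kidney, and all arrays came from females. Of 12 genes known as higher in males, 4 were called higher in KL null and 3 after FGF23. Slc7a13, an amino acid transporter gene of that list, read 6.79, 5.59, 5.88 and 5.48 after FGF23 and 11.33, 8.23, 9.11 and 8.57 in KL null. KL null replicate 1 was by far the highest, and the difference was -3.38 (SE 0.488, 10.4-fold, adjusted p = 0.000679). The fatty acid hydroxylase gene Cyp4a12b read 5.42, 5.98, 5.64 and 5.18 against 7.29, 7.49, 7.48 and 8.02 (-2.02, adjusted p = 3.1e-05). Cyp2e1, which oxidises ethanol and other small molecules, differed by -1.51 (adjusted p = 0.000107).

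Not every gene of that list followed. Kap, the androgen-regulated protein of the proximal tubule, was lower in KL null, at 12.01, 11.38, 11.91 and 11.48 against 12.92, 12.92, 13.19 and 13.18 (1.36, 2.56-fold, adjusted p = 2.89e-05). Odc1, the polyamine-forming ornithine decarboxylase, also had the higher signal after FGF23 (0.83, adjusted p = 0.000766). Of 4 genes known as higher in females, Slc22a7, Slc22a19 and Slc7a12 were called higher after FGF23 and Cyp4a14 in KL null (-0.86, adjusted p = 0.00121). Their mean signal was 10.52 to 11.24 after FGF23, 11.16 to 11.36 with vehicle and 8.94 to 9.52 in KL null. The Slc7a12 call (adjusted p = 0.0404) held without FGF23 replicate 1 or 2, vehicle replicate 4 or KL null replicate 2 and was lost without any other single array (adjusted p from 0.0506 to 0.123). Upp2, a uridine phosphorylase and not a member of either list, read 6.64, 6.39, 5.66 and 5.91 against 7.91, 9.19, 9.61 and 9.35 (-2.87, 7.29-fold, adjusted p = 6.24e-05).

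**Figure D3:**
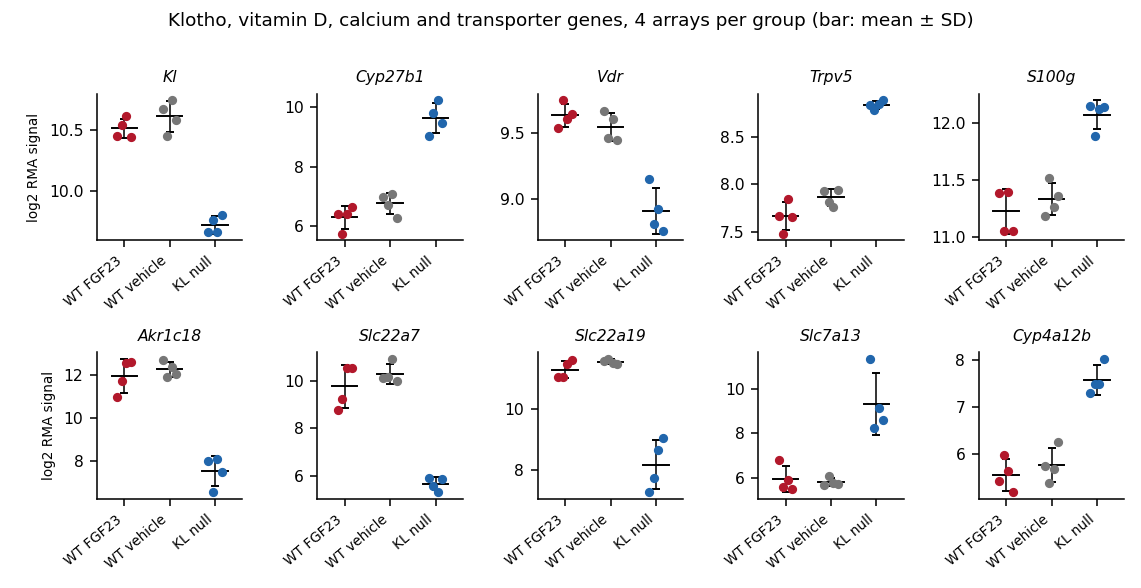
Log2 RMA signal of Kl and 9 further genes in the 4 arrays of each group, with points for arrays and bars for mean ± SD; each panel has its own vertical axis, which does not start at 0. KL null stands below both wild-type groups in Kl, Vdr, Akr1c18, Slc22a7 and Slc22a19 and above them in Cyp27b1, Trpv5, S100g, Slc7a13 and Cyp4a12b.

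Most myeloid genes were called higher in KL null. Of 22 measured markers of macrophages and related cells 16 were called higher in KL null and 0 after FGF23, with a median of -0.73. The mean log2 signal of the list ran from 6.05 to 6.45 in the FGF23 arrays, from 6.14 to 6.52 with vehicle and from 6.61 to 7.39 in KL null. In bulk RNA, a change in the number of cells of a type and a change in RNA per cell cannot be told apart. Without FGF23 replicate 1, 1 member, Csf1r, was called higher after FGF23. Without FGF23 replicate 2 the count of 16 was 10, and with no moderation of the variance it was also 10.

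Mmp12, the macrophage elastase, read 6.33, 6.22, 6.27 and 6.21 after FGF23 and 7.88, 10.42, 9.74 and 9.43 in KL null (-3.11, SE 0.352, 8.63-fold, adjusted p = 9.34e-05). Gpnmb, a membrane glycoprotein of lipid-laden macrophages, read 5.13, 5.05, 5.09 and 5.23 against 5.90, 8.99, 8.27 and 8.24 (-2.73, adjusted p = 0.00135). Lyz2, lysozyme, read 6.79, 6.74, 7.51 and 7.14 against 8.56, 9.83, 9.54 and 9.48 (-2.31, adjusted p = 9.46e-05). KL null replicate 1 was the lowest KL null array in all 3 genes, and the groups still did not overlap. Ctss, the lysosomal protease cathepsin S, followed (-1.70, adjusted p = 0.000251). By contrast, Csf1r, the receptor for the macrophage growth factor, was not higher in KL null (0.42, adjusted p = 0.0777). Csf1r was called higher after FGF23 in 6 of 24 alternatives. Among them were the fits without FGF23 replicate 1 (adjusted p = 0.0381), with the replicate number as a block (0.0373) and without the 4 arrays of lowest spread. Adgre1, another macrophage marker, did not pass (-0.38, adjusted p = 0.149), except without FGF23 replicate 3 (0.0492).

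Lymphocyte markers did not stand out. By limma 0 of 15 were called, 1 had an unadjusted p below 0.05, and the median was 0.10. Without FGF23 replicate 3, the pan-leukocyte gene Ptprc was called higher in KL null (adjusted p = 0.00957, against 0.126 with all arrays). Interferon-stimulated genes were called in 4 of 18 (22.2%, against 12% of all genes), with 3 higher after FGF23 and a median of 0.05. Gbp3, an interferon-induced GTPase, was the largest (8.75, 9.02, 10.63 and 10.34 against 8.28, 7.44, 7.59 and 7.34; 2.02, adjusted p = 0.00367).

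Of 18 markers of injured tubules 10 were called higher in KL null and 0 after FGF23, with a median of -0.46. The count was 7 to 12 when 1 array was left out, and without FGF23 replicate 3 there was 1 call on the FGF23 side. Lcn2, which encodes the iron-binding protein NGAL, read 6.46, 6.83, 7.22 and 6.68 after FGF23 and 7.87, 9.16, 9.32 and 10.05 in KL null (-2.30, SE 0.328, 4.93-fold, adjusted p = 0.000625). Timp1, an inhibitor of matrix metalloproteinases, read 5.22, 5.08, 5.23 and 4.87 against 6.04, 6.05, 6.26 and 6.17 (-1.03, adjusted p = 1.53e-05). The adhesion molecule gene Vcam1 differed by -0.86 (adjusted p = 0.000352). Havcr1, which encodes the injury marker KIM-1, did not follow and was not called (-0.39, adjusted p = 0.845). It read 5.04, 5.01, 5.66 and 9.87 after FGF23 and 6.43, 6.24, 7.26 and 7.22 in KL null, with 1 FGF23 array far above all others of its group, and 1 vehicle array was higher still.

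Of 28 fibrosis and matrix genes 8 were called higher in KL null and 2 after FGF23, with a median of -0.08. The 8 were led by Mmp12 and Dcn, a small proteoglycan (9.51, 9.44, 10.12 and 9.83 against 10.29, 11.18, 11.06 and 11.14; -1.19, adjusted p = 0.00174). Lum, a related proteoglycan, read 4.64, 4.91, 5.37 and 4.97 against 5.44, 6.18, 5.97 and 6.29 (adjusted p = 0.00286). The fibrillar collagen genes did not pass, with 0.33 for Col1a1 (adjusted p = 0.251) and 0.04 for Col3a1 (adjusted p = 0.882). Those called higher after FGF23 were Col4a1 and Fn1. That count was 1 without FGF23 replicate 1 and 0 without FGF23 replicate 2, 3 or 4 or KL null replicate 1, 2 or 3, where the adjusted p reached 0.0995 for Col4a1 and 0.0982 for Fn1. It was 4 in the fit on the 8 arrays and after quantile normalization, 1 with trended and robust moderation and 0 with no moderation, where the count of 8 was 5.

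**Figure D4:**
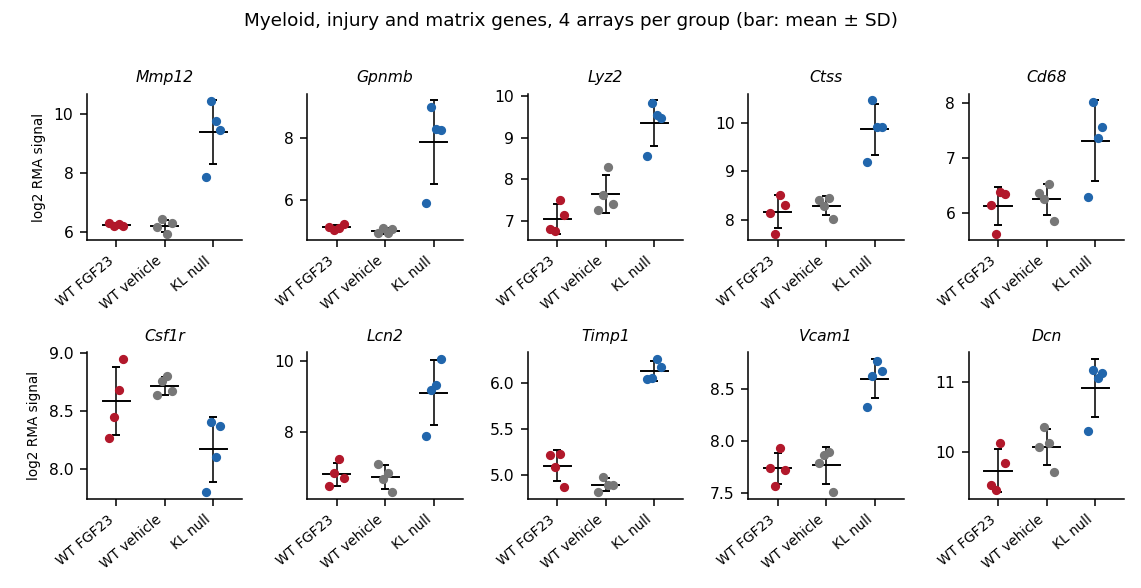
Log2 RMA signal of 10 myeloid, injury and matrix genes in the 4 arrays of each group, with points for arrays and bars for mean ± SD; each panel has its own vertical axis, which does not start at 0. KL null stands highest in all panels except Csf1r. KL null replicate 1 is the lowest array of its group in Mmp12, Gpnmb, Lyz2, Ctss, Cd68, Lcn2, Timp1 and Dcn.

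Of 22 proximal tubule markers 8 were called higher after FGF23 and 0 in KL null, with a median of 0.22. Of the others, 7 had a difference below 0, down to -0.34, and with array spread as a covariate 2 were called higher in KL null. The list's mean signal was 11.73 to 11.79 after FGF23, 11.8 to 11.91 with vehicle and 11.43 to 11.56 in KL null. Gatm, the first enzyme of creatine synthesis, read 12.14, 12.14, 12.12 and 12.14 against 11.62, 11.17, 11.19 and 11.14 (0.85, adjusted p = 0.000109). Slc13a3, a dicarboxylate transporter, differed by 0.68 (adjusted p = 0.00316). Slc6a18, an amino acid transporter of the brush border that belongs to another list, differed by 0.70 (adjusted p = 0.000203). Slc34a1 and Lrp2, given above, belong to this segment too. Whether the share of proximal tubule RNA in the samples moved with the phosphate and transporter genes was not tested.

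Podocyte markers had 0 of 9 called by limma, with 2 at an unadjusted p below 0.05 and a median of 0.15. Of the adrenal markers, which would show adrenal tissue in the dissection, 0 of 14 were called, with 4 at an unadjusted p below 0.05. Without FGF23 replicate 3, 2 adrenal markers were called higher after FGF23, and without FGF23 replicate 1 or 2 or KL null replicate 1, 1 was called higher in KL null. Adipocyte markers had 0 of 10 called and 2 at an unadjusted p below 0.05, and Adipoq read 3.45 to 3.82 in the FGF23 arrays and 3.46 to 3.73 in KL null. Without FGF23 replicate 1, 1 adipocyte gene was called higher after FGF23, and without KL null replicate 1, 1 was called higher in KL null. Of 5 erythroid genes 0 were called by limma, and 1 had an unadjusted p below 0.05, while 2 were called higher after FGF23 without KL null replicate 1. Endothelial markers had 6 of 15 called higher after FGF23, with a median of 0.24, led by Tie1, an endothelial receptor kinase (0.37, adjusted p = 0.0102). The endothelial count was 1 without FGF23 replicate 2 or 4, 2 without KL null replicate 2 or 3 and 3 without FGF23 replicate 3 or KL null replicate 1, and it was 1 without the 4 arrays of lowest spread. It was 3 in the fit on the 8 arrays alone and 1 with no moderation.

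**Figure D5:**
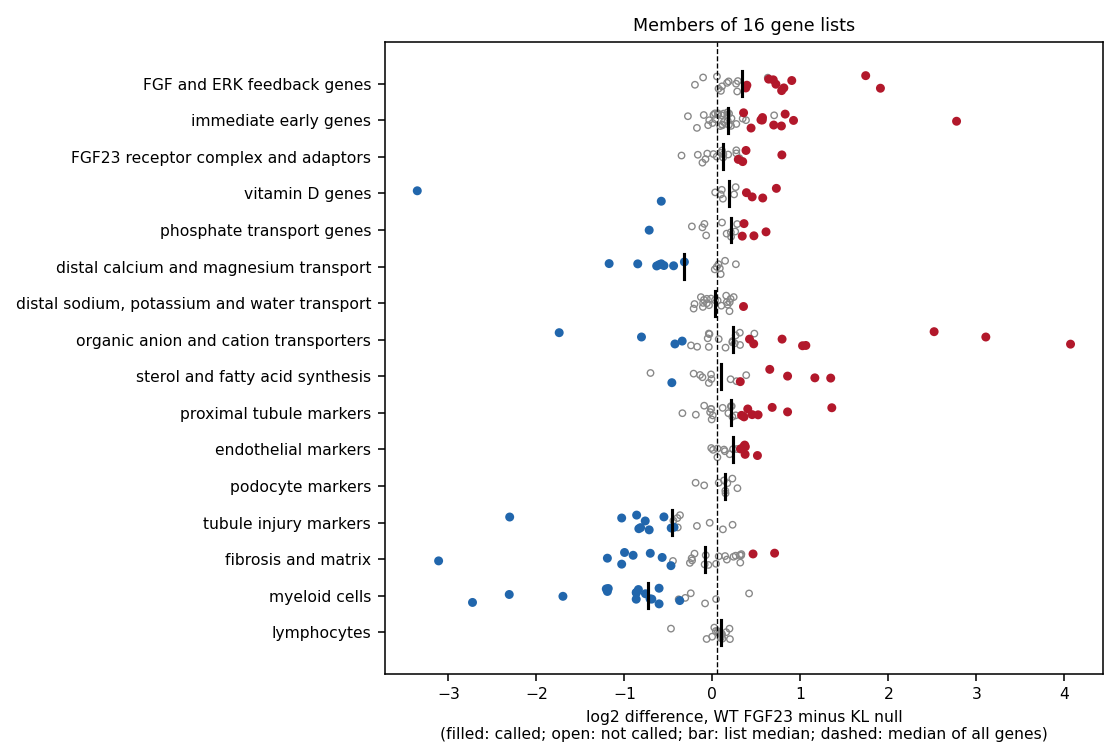
Log2 difference of FGF23-treated wild type minus KL null for each member of 16 gene lists; filled red points are called higher after FGF23, filled blue points called higher in KL null, open points not called, black bars the list medians and the dashed line the median of all 19938 genes (0.048). The medians of the myeloid, tubule injury and distal calcium lists lie to the left, at -0.73, -0.46 and -0.32. That of the FGF and ERK feedback list lies to the right, at 0.34. In the distal calcium list 7 of 15 members lie above 0.

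Genes of lipid synthesis and of detoxification were called in both directions. Of 16 sterol and fatty acid synthesis genes 5 were called higher after FGF23 and 1, Fdft1, in KL null. The median was 0.1, with 8 differences above 0 and 8 below. The KL null count was 2 without FGF23 replicate 3 or 4 or KL null replicate 1. The FGF23 count was 3 with no moderation. Cyp51, a demethylase of cholesterol synthesis, read 9.56, 9.42, 10.02 and 9.91 against 8.36, 8.28, 8.58 and 8.31 (1.34, 2.54-fold, adjusted p = 1.99e-05). Fasn, fatty acid synthase, differed by 0.85 (adjusted p = 4.48e-05) and Scd1, which desaturates fatty acids, by 1.17 (adjusted p = 0.000352). In fatty acid oxidation the calls leaned to KL null, with 5 of 23 against 1, and with 8 without KL null replicate 1. The omega-hydroxylase gene Cyp4a10 differed by -0.66 (adjusted p = 0.00146), while Acadm, medium-chain acyl-CoA dehydrogenase, was higher after FGF23 (0.44, adjusted p = 0.00582).

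NRF2 target genes split. The quinone reductase gene Nqo1 read 8.76, 8.34, 8.43 and 8.12 after FGF23 and 9.82, 9.59, 9.49 and 9.45 in KL null (-1.18, adjusted p = 8.98e-05), and Ephx1, an epoxide hydrolase, differed by -0.93 (adjusted p = 0.000113). Gclm, a subunit of the enzyme that starts glutathione synthesis, was higher after FGF23, at 10.65, 10.83, 10.83 and 10.98 against 9.91, 10.06, 10.13 and 10.25 (0.73, adjusted p = 0.000214). Of 16 members 2 were called higher after FGF23 and 3 in KL null, the latter 5 without FGF23 replicate 3. The median of these members was -0.1.

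Among 19 genes of the ATF4 and CHOP stress response 3 were called higher after FGF23 and 0 in KL null, with 1 in KL null when KL null replicate 1 was left out. The share called, 15.8%, was near the 12% of all genes. Hspa5, the chaperone BiP of the endoplasmic reticulum, read 11.64, 11.43, 11.35 and 11.15 against 10.63, 10.53, 10.55 and 10.70 (0.79, adjusted p = 0.000324). Ddit3, which encodes CHOP, differed by 0.60 (adjusted p = 0.00197) and was not called without the 4 arrays of lowest spread (adjusted p = 0.0964). Clock genes moved in both directions, with 2 of 17 higher after FGF23 and 3 in KL null. The first count was 1 without FGF23 replicate 1, 2 or 4, vehicle replicate 2 or KL null replicate 1, 2 or 3, and the second was 5 without KL null replicate 1 and 1 without KL null replicate 3. Bhlhe40, a repressor of the clock that also responds early to growth signals, read 9.04, 9.44, 9.57 and 9.85 against 8.34, 8.22, 8.63 and 8.44 (1.07, 2.1-fold, adjusted p = 0.000403). Cry2, a core repressor, was higher in KL null (-0.69, adjusted p = 0.00707). In the renin-angiotensin list 2 of 9 were called higher after FGF23 and 1 in KL null, Atp6ap2. The latter count was 0 without FGF23 replicate 1 or 2 or KL null replicate 2, 3 or 4 and 2 without KL null replicate 1. The list's FGF23 side held Ace, the angiotensin-converting enzyme (8.70, 8.82, 9.11 and 9.65 against 7.71, 7.89, 8.10 and 8.19; 1.10, adjusted p = 0.00182). Of 20 cell cycle genes 1 was called, Pcna, the clamp of DNA replication (-0.47, adjusted p = 0.0053), and a second was called higher in KL null without FGF23 replicate 2, vehicle replicate 1, 2 or 4 or KL null replicate 1.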

How the data were processed

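The deposited values are log2 RMA signals per probe set, made by the authors from whole-transcript Affymetrix arrays with Partek 6.2, per the submitters' processing notes. Other settings are not given in the sources used here, and whether a probe set stood above its background could not be tested from this table. RMA compresses the differences of dim probe sets, and the number of arrays limits the precision.

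The table held 28853 probe sets, of which 21789 had 1 gene symbol in the platform annotation, 1621 several and 5443 none; 21698 of those with 1 symbol matched RefSeq by Entrez identifier. Of 19938 genes 999 had several probe sets. In 155 called genes with several, 17 had another probe set of opposite sign, 0 of them called.

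limma 3.58.1 in R 4.3.3 (lmFit, eBayes) fitted 3 group means to 12 arrays, with 9 residual degrees of freedom. Summaries used Python 3.11.15 with pandas 2.3.3, and plots matplotlib 3.10.9. The fit was tested on simulated data with independent noise per gene and array. That setting holds neither the unequal spread of the arrays nor the shared deviations given next, so it says nothing about them. Same-numbered arrays of FGF23 and KL null deviated together from their group means in all 4 pairs (r of 0.223, 0.143, 0.259 and 0.188 over genes). Pairs with vehicle did not share a sign, with r from -0.216 to 0.191 for FGF23 and from -0.137 to 0.169 for KL null. A fit with the replicate number as a block over the 3 groups is an alternative whose values are given where they change a call.

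The comparison, the 35 gene lists (573 of 633 entries measured) and the rules were chosen with earlier results of these data known. Named genes are the 12 largest called differences in each direction with non-overlapping arrays, the 10 largest with vehicle between the groups, the 5 with the widest gap, genes of the FGF23 pathway listed by name, and up to 3 called members of smallest p per list, or 1 where none was called, leaving out predicted genes, clones, small RNAs, receptor and immunoglobulin segments. Genes named beyond that were chosen after their values were seen. Alternatives were other normalizations, moderation, weights, filters, left-out arrays and probe set choices.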

Additional observations from a re-analysis of the deposited data

Results flagged for a closer look

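Of 394 groups of 4 arrays examined among the named genes, 19 held an array that stood apart from the other 3, by a gap beyond Dixon's critical value for 4 samples. Chance gives about 1 in 20 such groups. In the FGF23 group, replicate 4 was high for the injury gene Havcr1 (9.87 against 5.01 to 5.66) and for Fgfr4 (8.59 against 8.25 to 8.30). FGF23 replicate 1 was low for Nab2 (8.26 against 8.71 to 8.76). FGF23 replicate 2 was low for the acetyltransferase gene Nat8f5 (6.25 against 6.46 to 6.49) and the Y-linked gene Eif2s3y (2.84 against 2.97 to 2.99), and high for the phosphatase gene Dusp2 (6.39 against 5.87 to 5.92). FGF23 replicate 3 was high for the sodium-calcium exchanger gene Slc8a1 (9.20 against 8.53 to 8.62) and low for Gatm (12.12 against 12.14 in the others).

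In the KL null group, replicate 1 was low for Cyp2e1 (10.79 against 11.42 to 11.52), Dcn (10.29 against 11.06 to 11.18), the phospholipase gene Plce1 (6.60 against 7.04 to 7.11) and the renin receptor gene Atp6ap2 (9.73 against 9.89 to 9.92), and high for Gatm (11.62 against 11.14 to 11.19). KL null replicate 2 was low for Nab2 (7.53 against 7.91 to 7.98), S100g (11.89 against 12.12 to 12.15) and Acadm (11.92 against 12.08 to 12.09), and high for Dusp5 (6.53 against 6.25 to 6.28). KL null replicate 4 was low for Dusp2 (5.53 against 5.71 to 5.72) and high for Col4a1 (8.40 against 8.15 to 8.19).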

How the results depend on the processing

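Over 24 alternatives, 104 of the 176 named genes that were called kept direction and call in every one, and 72 lost the call in at least 1, none of them changing sign. Of the 21 named genes that were not called, 12 gained a call in at least 1. With the replicate number as a block 2396 genes were called, against 2386 without it, and of the genes given with values it changed the calls of Fgfr3, Slc9a3r2, Etv4 and Csf1r only. The gene list counts were recomputed under the alternatives by a choice made after seeing the data. Leaving out 1 array gave 1218 to 2794 calls, 544 to 1203 higher after FGF23, 674 to 1612 higher in KL null and 42 to 157 genes with vehicle between the groups. Without the 4 arrays of lowest spread these were 1166, 507, 659 and 217, from 4 fewer arrays. Under the other alternatives the counts over all genes stayed within 1.5 times. The list counts did not: of 70 (35 lists in 2 directions), 13 moved by over 1.5 times or to or from 0 with no moderation, 16 with array weights, 11 with array spread as a covariate, 9 after quantile normalization, 5 on the 8 arrays alone, 5 with the replicate block, and 24 without the 4 arrays of lowest spread. Genes that were not called changed sign as follows. Ptprc was at 0.045 without the 4 arrays of lowest spread. Havcr1 was at 0.4182 with array weights, 0.5107 with array spread as a covariate and 0.525 without those 4 arrays, and between -1.551 and 0.06917 when 1 array was left out. Xist was at 0.01204, 0.02564 and 0.105 under the same settings, and between -0.1008 and 0.01583 with 1 array left out. The cause of these shifts was not tested.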

Other observations

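Further genes of the largest differences belong to none of the groups above. On the FGF23 side C8a, a subunit gene of complement component 8, read 6.73, 7.69, 8.50 and 8.45 after FGF23 and 5.19, 5.36, 5.75 and 5.57 in KL null (2.38, adjusted p = 0.000185). Ly6f, of the Ly6 family of lipid-anchored surface proteins, differed by 2.99 (adjusted p = 6.34e-06). In both genes vehicle lay with the FGF23 arrays, at 7.85 to 8.42 for C8a and 8.24 to 9.23 for Ly6f. Plk3, an early-induced polo-like kinase gene, read 9.15, 8.74, 7.94 and 8.33 after FGF23 and 5.19, 6.65, 5.96 and 6.79 in KL null (2.39, adjusted p = 0.00199). Its vehicle arrays spread from 6.01 to 8.02, and without the 4 arrays of lowest spread the adjusted p was 0.0724.

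On the KL null side, Gdpd3, a lysophospholipase D gene, read 6.82, 7.21, 7.51 and 7.58 after FGF23 and 8.99, 9.40, 8.94 and 9.99 in KL null (-2.05, adjusted p = 0.00108), and vehicle reached from 7.57 to 9.39. Npy6r, a receptor gene of the neuropeptide Y family, differed by -1.83 (adjusted p = 8.59e-05). Tmem52b had a smaller difference (-0.57, adjusted p = 0.000676). It is listed as a marker of the distal nephron and belongs to the genes, described above, with vehicle between the groups (10.69 to 10.82). Markers of the collecting duct were called in 2 of 18 (11.1%), 1 in each direction, with a median of 0.02. Glucocorticoid-responsive genes were called in 2 of 14 (14.3%), also 1 in each direction, with a median of 0.06. Both shares were near the 12% of all genes. The collecting duct count on the FGF23 side was 0 without FGF23 replicate 2 or 4 or KL null replicate 3 or 4 and 2 without KL null replicate 1, and on the KL null side it was 0 without FGF23 replicate 2 or KL null replicate 3. In the glucocorticoid list it was 2 on the FGF23 side without FGF23 replicate 3 and 3 on the KL null side without KL null replicate 1, and 6 on that side without the 4 arrays of lowest spread.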
